A study of Mus musculus with 4 samples.

Results

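DNA replication and licensing genes are a group of 58 genes, chosen by name, that encode the proteins which load the replicative helicase onto DNA, start the replication forks and copy the genome. All 58 were found among the 32285 genes counted. They were sorted by the known role of their products into licensing (12 genes), helicase activation and origin firing (10), sliding clamp and clamp loader (7), single-stranded DNA binding (3), primase and polymerases (9), fragment maturation and repair at the fork (6), chromatin assembly behind the fork (7) and fork protection or S-phase control (4). They were measured in mouse thymocytes by droplet single-cell RNA sequencing with the 10x Genomics 3′ kit, in which each transcript is read at its poly(A) end and counted once by its unique molecular identifier (UMI).

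Control mice carried floxed alleles of Tox4 (genotype Tox4;F/F), and conditional knockout (cKO) mice carried the same alleles with a Cre transgene (Tox4;F/F;Lck+). Per the study's methods, Cre was driven by the proximal Lck promoter, deletion began at the DN3 stage, exons 4 to 6 were floxed, and the mice were young adult littermates matched by sex on a C57BL/6 background. Each genotype had 2 libraries, 1 per mouse, which are called control 1 and 2 and cKO 1 and 2 by the numbers of their labels. Thymocytes were not sorted, and cells without Lck-Cre activity, such as macrophages and B cells, kept the floxed alleles in the cKO mice too.

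In G1 phase, the origin recognition complex with Cdc6 and Cdt1 loads rings of the MCM helicase (Mcm2 to Mcm7) onto origins, which is called licensing, and geminin (Gmnn) stops further loading in S phase. The Cdc7 kinase with Dbf4, and Cdc45 with the GINS complex (Gins1 to Gins4), then turn the loaded rings into active helicases, after which primase and polymerases copy DNA on the sliding clamp PCNA. Many of these genes are switched on by E2F factors before S phase. In the thymus, late CD4-CD8- cells (DN) and early CD4+CD8+ cells (DP blasts) divide rapidly, and most later DP cells are quiescent while they rearrange the T cell receptor alpha gene.

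The libraries held 11790 to 17347 deposited cells and 42716798 to 62007453 UMIs. Mitochondrial filtering removed most of what was lost: 48.3% of cells lay over the limit in control 1, 20.6% in control 2, 46.1% in cKO 1 and 23.1% in cKO 2. Between 5648 and 12027 cells were kept per library, with median totals of 2493 to 3445 UMIs, and pairs of libraries shared 10 to 33 cell barcodes. Clusters were named from marker genes that include none of the 58, after clustering without the 58, so every class name below is a rebuilt "X-like" name. Each class carried its markers, which had named it, so their levels describe the classes and do not test the names. Il2ra, the interleukin 2 receptor alpha chain of DN cells, was at 462 to 532 UMIs per 1000000 UMIs of the class (CPM) in DN cells and at 5.16 to 7.3 CPM in resting DP cells (DPre). The proliferation marker Mki67 was at 992 to 1174 CPM in DP blasts (DPbla), and Rag1, a recombinase gene of rearranging cells, at 1979 to 2502 CPM in DPre. Tox4 itself was counted at 68.6 and 73.5 CPM in the control libraries and at 54.3 and 62.2 CPM in the cKO libraries over all kept cells. It was not called in any class (in DPre, log2 fold change −0.27, SE 0.11, adjusted p = 0.24, edgeR with Benjamini-Hochberg adjustment). A 3′ count reads the end of the transcript, which a deleted allele may still produce, so it does not measure the deletion.

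DPbla was named from genes of S phase and mitosis, such as Mki67, Top2a and Rrm2. Such genes mark dividing cells of any stage, so the high level of replication genes there is not a test of stage. Among the named classes, the replication genes were most abundant in DP blasts in every library. Summed over the 58 genes, they made up 0.964% and 1% of all UMIs of DPbla cells in control 1 and 2 and 0.989% and 0.954% in cKO 1 and 2. The DN cells, labelled from Il2ra and other early markers, came at 0.231% and 0.237% in the controls and 0.29% and 0.341% in the cKO libraries. DPre cells held 0.148% and 0.137% in the controls and 0.157% and 0.153% in the cKO libraries, close to the DP cells under selection (DPsel, 0.129 to 0.149%) and to CD4 single-positive cells (CD4SP, 0.124 to 0.147%). CD8 single-positive cells (CD8SP) lay higher, at 0.207 to 0.242%. Thus the order was DPbla, then DN, with CD8SP overlapping the range of the control DN libraries, and then DPre, DPsel and CD4SP, whose ranges overlapped each other. With the 58 genes kept among the clustering genes, CD8SP cells held 0.325 to 0.388%, above the DN cells of the same library in all 4 (0.234 to 0.338%), so the order of DN and CD8SP depended on the clustering. In that clustering CD8SP had 802 cells, against 655 in the main one. A list of G2/M genes held 0.351 to 0.593% of its UMIs, against 0.238 to 0.262%, and the part of dividing cells in the change was not tested. The summed levels of the main clustering have relative 95% half-widths (Wilson interval, counting error only) of at most 1.0% in DPbla, 1.7% in DPre and 5.2% in DN.

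Replication genes were also counted in cells named from markers outside the T lineage. Cells of the mononuclear phagocyte system (MPS) held 0.153 to 0.228%, more than the DPre cells of the same library in all 4. Erythroid cells held 0.033 to 0.135%. The MPS cells also carried thymocyte transcripts: Cd8b1, a CD8 chain gene, was at 580 to 1393 CPM and Rag1 at 465 to 848 CPM in them, against 2297 to 3039 and 1979 to 2502 CPM in DPre, so their values are not a level free of thymocyte RNA. A small cluster of cycling single-positive cells, left unnamed because its leading genes held more markers of another class than of DPbla, its best match, reached 0.779 to 1.07%, which overlaps the range of DPbla. A DP cluster led by the late mitosis genes Ccnb2 and Cdc20 held 0.416 to 0.466%.

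**Figure D1:**
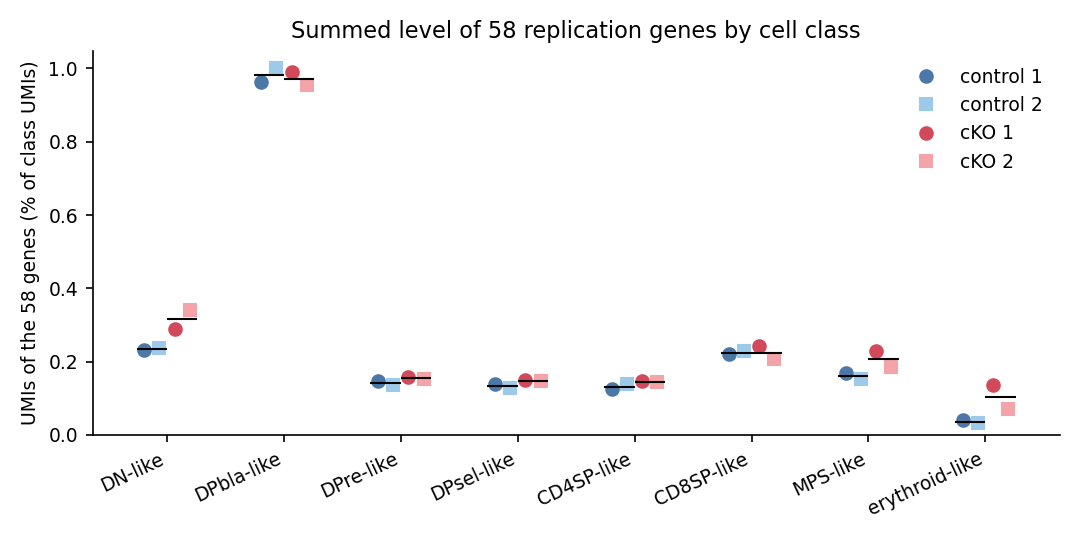
Summed level of the 58 replication genes, as a percent of the UMIs of each cell class, in each library (points; black bars are the means of the 2 libraries of a genotype). All 4 libraries sit near 1% in DP blasts, and in DN the cKO libraries (0.29 and 0.341%) lie above the controls (0.231 and 0.237%).

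Each of the 58 genes had its highest mean level in DPbla among the 6 αβ T cell classes, and 55 did so in each library taken alone. Classes were built from the same cells, and DPbla was named from genes of dividing cells, so these levels are a description with no test. On the scale log2(CPM + 5), 53 of the 58 were higher by at least 1 in DPbla than in DPre, against 7.81% of the 7926 genes with at least 10 CPM over both classes. The class with the next highest mean was DN for 35 genes, CD8SP for 18, DPre for 3 and DPsel for 2.

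Pclaf, a PCNA-binding factor, had the steepest profile, with a mean of 1460 CPM in DPbla and 52.7 CPM in DPre (log2 difference 4.73, range 4.22 to 5.37 over the 4 libraries). It was followed by Rad51ap1, a DNA repair factor, at 131 and 4.72 CPM, and by Clspn, the checkpoint adaptor claspin, at 235 and 12.8 CPM. Lig1, the ligase that joins Okazaki fragments, came next with 254 and 15.3 CPM, then the histone chaperone Asf1b with 195 and 11.3 CPM. These 5 genes act in different steps of replication.

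The flattest gene was Msh6, a mismatch repair factor, whose DPbla levels of 71.5, 83.4, 74.4 and 100 CPM (control 1, control 2, cKO 1, cKO 2) overlapped its DPre levels of 77.5, 81, 72.4 and 93.8 CPM. Its mean log2 difference was 0.01, between −0.11 and 0.09. Orc2, a subunit of the origin recognition complex, followed with 36.4 CPM in DPbla and 23.6 CPM in DPre (0.52). Rpa1, the large subunit of the single-stranded DNA binding protein, had 96.2 and 50.3 CPM (0.87). Gins4 had 74.3 and 35.8 CPM (0.96), and Orc1 had 11 and 2.89 CPM (0.99). Subunits of the same complex thus differed in their profile: within GINS, Gins2 had a difference of 2.37 and Gins1 of 2.33, while Gins3 had 1.46 and Gins4 0.96.

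By role, the median log2 difference between DPbla and DPre was largest for chromatin assembly (3.13), then fork control (2.72), maturation and repair (2.61), clamp and clamp loader (2.35), firing (2.23), licensing (2.22) and polymerases (2.12), and it was smallest for single-stranded DNA binding (1.36). Genes varied within a role too, from 0.01 to 3.83 in maturation and repair.

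**Figure D2:**
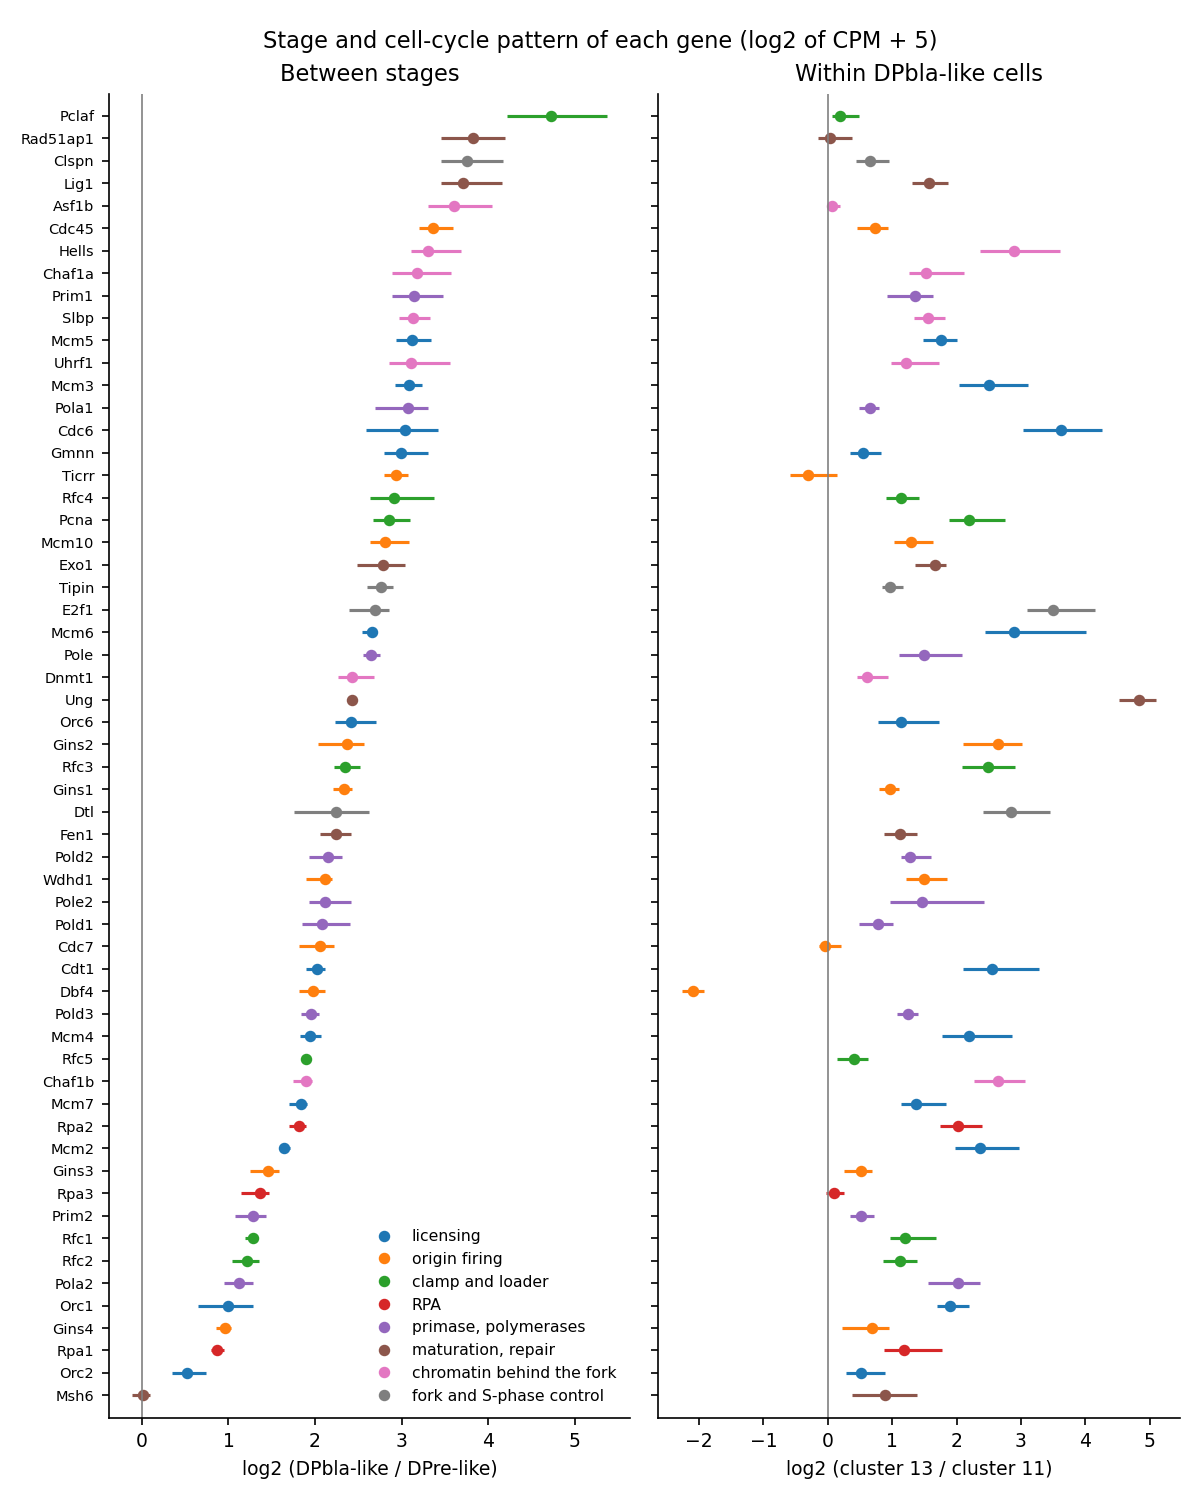
Difference between DP blasts and resting DP cells for each of the 58 genes, in log2(CPM + 5), grouped by role. Points are means of the 4 libraries and lines run from the lowest to the highest library, from 0.01 for Msh6 to 4.73 for Pclaf.

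DP blasts fell into 3 clusters, which were ordered by a list of G2/M genes that holds none of the 58. Cluster 13 had the least of the list (0.76 to 0.862% of UMIs) and was led by Cdc6, Hells and Ung, cluster 10 stood between (2.14 to 2.23%) and was led by Pclaf, Rrm2 and histone genes, and cluster 11 had the most (3.84 to 4.17%) and was led by Cenpf and Ube2c. The replication genes made up 1.07 to 1.32% of UMIs in cluster 13, 1.18 to 1.4% in cluster 10 and 0.446 to 0.527% in cluster 11. Of the 58, 27 had their highest mean in cluster 13, 30 in cluster 10 and 1 in cluster 11, and 48 had the same highest cluster in every library.

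The licensing genes peaked earliest in this order, 10 of 12 in cluster 13, while 6 of 7 clamp genes and 7 of 9 polymerase genes peaked in cluster 10. The members of this paragraph were picked after their values were seen. Ung, the uracil glycosylase that repairs misincorporated uracil, was at 204, 199, 173 and 166 CPM in cluster 13 (control 1, control 2, cKO 1, cKO 2) and at 0.946 to 2.39 CPM in cluster 11, a mean log2 difference of 4.84. Cdc6 had a difference of 3.62, E2f1 of 3.5, and Hells, a chromatin remodeler, and Mcm6 of 2.90 each. Dbf4, the activator of the Cdc7 kinase, ran the other way at −2.10 and was the only member that peaked in cluster 11. Its partner Cdc7 was at about the same level at both ends of the order (−0.04, range −0.14 to 0.2). Pclaf, Rad51ap1 and Asf1b, all with differences of 0.03 to 0.19, were as abundant in cluster 11 as in cluster 13 and highest between them.

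Promoter sequences are shown for the licensing genes Mcm5 and Mcm6, for the 4 genes called in resting DP cells further on (Pola1, Pclaf, Clspn and Cdc6), and for Msh6 as the gene with the flattest profile. RefSeq windows of GRCm38.p6, from 250 bases before to 50 after the outermost start of a gene, were matched to 48 of the 58 genes. They were searched on both strands for TTTGGCGC and TTTCGCGC, the letters of E2F sites, for CCAAT, the NF-Y box, and for TTTGAA, the cell cycle homology region. The first pair can overlap each other on opposite strands. The 150 bases before the start are printed 5′ to 3′ on the strand of the gene, with matches to the E2F letters and to CCAAT (or its complement) in capitals.
Mcm5, chr8:75109359-75109508, plus strand: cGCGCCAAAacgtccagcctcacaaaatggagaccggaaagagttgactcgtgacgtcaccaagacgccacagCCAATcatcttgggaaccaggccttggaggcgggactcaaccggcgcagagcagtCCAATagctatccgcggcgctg
Mcm6, chr1:128359706-128359855, minus strand: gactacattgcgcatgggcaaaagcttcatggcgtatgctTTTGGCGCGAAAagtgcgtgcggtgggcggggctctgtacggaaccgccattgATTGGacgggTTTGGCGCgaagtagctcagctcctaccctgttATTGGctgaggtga
Pola1, chrX:93632156-93632305, minus strand: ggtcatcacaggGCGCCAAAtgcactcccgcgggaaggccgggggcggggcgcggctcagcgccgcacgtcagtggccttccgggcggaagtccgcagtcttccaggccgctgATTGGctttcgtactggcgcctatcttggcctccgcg
Pclaf, chr9:65890173-65890322, plus strand: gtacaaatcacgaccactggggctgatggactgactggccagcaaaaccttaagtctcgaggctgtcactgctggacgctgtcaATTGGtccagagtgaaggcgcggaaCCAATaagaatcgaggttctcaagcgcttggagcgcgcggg
Clspn, chr4:126556830-126556979, plus strand: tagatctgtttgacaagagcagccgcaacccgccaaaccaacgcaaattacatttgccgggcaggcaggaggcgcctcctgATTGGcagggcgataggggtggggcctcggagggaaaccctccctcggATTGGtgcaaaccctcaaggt
Cdc6, chr11:98908001-98908150, plus strand: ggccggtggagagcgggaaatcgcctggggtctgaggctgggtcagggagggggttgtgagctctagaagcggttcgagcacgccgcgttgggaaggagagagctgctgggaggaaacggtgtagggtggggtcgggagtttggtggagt
Msh6, chr17:87974900-87975049, plus strand: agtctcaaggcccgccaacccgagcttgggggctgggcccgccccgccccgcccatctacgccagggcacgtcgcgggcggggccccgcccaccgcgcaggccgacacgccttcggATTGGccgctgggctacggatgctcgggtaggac

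TTTGGCGC was found in 7 of the 48 windows (14.6%; Cdt1, Dtl, Mcm3, Mcm5, Mcm6, Pola1 and Pole2), against 0.537% of all 27025 windows. TTTCGCGC was found in 6 (12.5%; Clspn, Mcm5, Mcm6, Mcm7, Orc1 and Rfc3), against 0.326%. Either was present in 11 of the 48 (22.9%), against 0.84% of all windows, and Mcm6 held 3 matches within the stretch printed, of which a pair overlapped. CCAAT was present in 31 (64.6%), against 38% of all windows, and TTTGAA in 8 (16.7%), against 18.2%. Claspin's E2F match lies in the window but outside the 150 bases shown.

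The 11 genes with E2F letters and the 37 without had nearly the same median difference between DPbla and DPre (2.35 and 2.42). Within the blasts, 9 of the 11 and 14 of the 37 peaked in cluster 13. Of the 8 genes with TTTGAA, 1 peaked in cluster 13, against 22 of the 40 without it, and the 8 include Dbf4, Cdc7 and Asf1b. These counts describe letters in a window, not binding, and were not tested.

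Over all kept cells of a library, the replication genes made up 0.297% and 0.31% of UMIs in the controls and 0.398% and 0.386% in the cKO libraries, so that the cKO libraries lay above both controls (log2 ratio of means 0.37). DPbla cells were 6.66% and 6.48% of the kept cells in the controls and 9.48% and 9.63% in the cKO libraries. They held 15.6%, 16.5%, 24.4% and 24.3% of all UMIs and 50.5%, 53.5%, 60.7% and 60.1% of the replication gene UMIs in control 1, control 2, cKO 1 and cKO 2. With the level in each class held at its mean over libraries, and only the shares of UMIs that the classes held left as measured, the libraries came to 0.304%, 0.313%, 0.388% and 0.387% (log2 ratio 0.33). With the shares held and the levels left as measured they came to 0.341%, 0.346%, 0.358% and 0.347% (0.04). Most of the difference over all cells thus lay in the shares of UMIs of the classes, not in the levels within them. The comparisons that follow were made within classes.

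In DN cells, the replication genes lay higher in the cKO libraries as a group, while no gene passed the test. Their sum was 0.234% ± 0.0043 of UMIs in the controls and 0.315% ± 0.036 in the cKO libraries (mean ± SD, n = 2 each), a fold of 1.35. The 95% Wilson intervals of the 4 libraries, 0.219 to 0.243% and 0.227 to 0.246% for the controls and 0.281 to 0.299% and 0.333 to 0.349% for the cKO, did not overlap between genotypes, but those of the cKO libraries did not overlap each other either, since these intervals cover counting error only and not the spread between mice. With 2 libraries against 2, an exact permutation test of a single value cannot go below p = 0.333, and genes were therefore tested by the fit across all genes.

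Of the 58 genes, 53 passed the filter on low counts in DN (Exo1, Gins3, Mcm10, Pole and Ticrr did not). None was called at an adjusted p under 0.05 with edgeR's quasi-likelihood test, nor with DESeq2, and the background was 0.0233% of all genes tested. At an unadjusted p under 0.05, 22 of the 53 were higher in cKO (41.5%, against 3.96% of all genes) and 0 were lower (against 3.17%). Both cKO libraries lay above both controls for 34 of the 53 (64.2%, against 16.8%) and below them for 2 (3.77%, against 20.3%). The log2 fold change was above 0 for 49 of the 53 (92.5%, against 49% of all genes), with a median of 0.47 over the 53 and −0.01 over all 8568 genes. The filter keeps a low gene more easily where it is high in a group, so these counts describe the genes that passed. With 1 library left out, edgeR called 2 members without control 1 (Mcm3 and Pclaf; 3.45%, against 0.39% of all genes), 5 without control 2 (Mcm3, Pcna, Ung, Lig1 and Mcm5; 8.62%, against 0.547%), 4 without cKO 1 (7.14%, against 0.206%) and 3 without cKO 2 (5.56%, against 0.604%), all higher in cKO and with Mcm3 in each set.

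Mcm3, a subunit of the helicase ring, had the smallest p in DN. It was counted at 49.5 and 61.8 CPM in the controls and at 103 and 135 CPM in the cKO libraries, which did not overlap (log2 fold change 1.10, SE 0.20, adjusted p = 0.191, edgeR). The sliding clamp gene Pcna followed, at 99.1 and 116 CPM against 174 and 201 CPM, also without overlap (0.81, SE 0.15, adjusted p = 0.215, edgeR). Pclaf stood at 97.5 and 52.9 CPM in the controls and at 143 and 122 CPM in the cKO (0.89, SE 0.22, adjusted p = 0.327, edgeR). Lig1 came next, at 24 and 39.9 against 52.7 and 76.5 CPM (a difference of 1 on the log2 scale, SE 0.27, adjusted p = 0.393, edgeR). Asf1b, named for its difference between stages, rested on few molecules, at 4.79 and 8.98 CPM against 27.9 and 18.3 CPM (a log2 fold change of 1.61, SE 0.43, adjusted p = 0.393, edgeR). For each of these 5 genes every cKO library exceeded every control library.

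Among the fixed examples of each role, the loading factor Cdt1 was at 11.2 and 19 CPM in the control DN cells and at 28.7 and 37.1 CPM in those of the cKO (log2 fold change 1.09). The helicase cofactor Cdc45 was at 3.2 and 8.98 CPM against 13.9 and 11.6 CPM (0.91), and the polymerase alpha subunit Pola1 at 11.2 and 9.97 CPM against 14.7 and 23.7 CPM (0.95). The maintenance methyltransferase Dnmt1 was at 92.7 and 93.8 CPM against 107 and 142 CPM (0.45). In these 4 the groups did not overlap either. Mcm2 overlapped, at 81.5 and 62.8 CPM against 72.8 and 100 CPM (0.34). So did the transcription factor E2f1, at 20.8 and 8.98 CPM against 17 and 17 CPM (0.33). None of these 6 passed the test (adjusted p from 0.454 for Cdt1 to 0.915 for E2f1, edgeR).

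Summed by role, licensing genes were at 602 and 674 CPM in the controls and at 806 and 959 CPM in the cKO libraries, with no test of the sum. Sums of the clamp (436 and 419 against 615 and 634 CPM), RPA (134 and 135 against 157 and 189 CPM), polymerase (209 and 223 against 255 and 299 CPM), maturation (136 and 165 against 210 and 257 CPM) and firing genes (123 and 154 against 167 and 188 CPM) were apart in the same direction. Chromatin genes were at 508 and 461 against 533 and 655 CPM. Fork control genes overlapped, at 158 and 138 CPM in the controls and 156 and 228 CPM in the cKO.

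Genes of mitosis lay higher in the same DN libraries. The G2/M list held 0.342% and 0.338% of DN UMIs in the controls and 0.558% and 0.423% in the cKO, its median log2 fold change was 0.69 with 43 of the 45 tested genes above 0, and Top2a was called (62.3 and 63.8 against 147 and 146 CPM; 1.23, SE 0.16, adjusted p = 0.0278, edgeR). The part that a larger share of dividing cells had in the values of the replication genes was not tested. DN classes were small (69, 105, 141 and 279 cells), and their 7 markers of γδ T cells summed to 954 and 894 CPM in the controls and 993 and 891 CPM in the cKO, with Tcrg-V6 at 0. The 9 MPS markers summed to 268 and 364 against 249 and 245 CPM, with none at 0 in all libraries. The 6 erythroid markers summed to 3.2 and 12 against 12.4 and 20.1 CPM, higher in both cKO libraries. The 7 B cell markers, with Cd79a at 0, summed to 241 and 212 against 210 and 183 CPM, and these and the MPS markers were lower in both. The part of these cells in the result was not tested.

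In DP blasts the sum did not separate the genotypes: it was 0.983% ± 0.028 in the controls and 0.971% ± 0.025 in the cKO (mean ± SD, n = 2 each), with overlapping libraries. All 58 genes were tested, and none was called with edgeR or DESeq2 (background 2.89%). At an unadjusted p under 0.05, 4 were higher in cKO (6.9%, against 8.56% of all genes) and 1 was lower (1.72%, against 7.06%). Both cKO libraries were above both controls for 14 genes (24.1%, against 18.6%) and below for 11 (19%, against 28.3%). The log2 fold change was above 0 for 35 genes (60.3%, against 49.2%), with a median of 0.05. Without control 2, Dtl and Orc1 were called higher (3.45%, against 4.12% of all genes in that fit), and without cKO 1, Asf1b was called lower (1.72%, against 2.87%), shares below the background.

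Hells had the smallest p in DPbla, at 144 and 156 CPM in the controls and at 182 and 197 CPM in the cKO (log2 fold change 0.38, SE 0.11, adjusted p = 0.0788, edgeR). Its fold change was 0.02 in cluster 13, 0.01 in cluster 10 and 0.75 in cluster 11, the 3 clusters of the blasts. Asf1b went the other way, at 236 and 213 against 185 and 147 CPM (−0.39, SE 0.12, adjusted p = 0.0953, edgeR). Ung was at 45 and 50.3 against 59.3 and 62.4 CPM (0.39, SE 0.13, adjusted p = 0.109, edgeR). Orc1, the ATPase of the origin recognition complex, was at 6.5 and 10.1 against 14.2 and 13.1 CPM (0.72, SE 0.24, adjusted p = 0.119, edgeR). The genotypes did not overlap in any of these 4 genes.

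By role, in the blasts the signs of the fold changes were mixed. Of the 12 licensing genes, 10 had a log2 fold change above 0 and 7 had both cKO libraries above both controls (against 49.2% and 18.6% of all genes), with a median of 0.18. Of the 10 firing genes, 2 were above 0, with a median of −0.04. Mcm2 was at 147 and 143 CPM in the controls and 151 and 159 CPM in the cKO (0.14), and Cdt1 at 72.8 and 76.4 against 82.7 and 84 CPM (0.20). Cdc45 was at 105 and 98.3 against 99.6 and 82.3 CPM (−0.12), and Pcna at 753 and 746 against 730 and 691 CPM (−0.03). Pola1 was at 72.8 and 77.5 against 75.3 and 91.2 CPM (0.19), Dnmt1 at 263 and 295 against 281 and 327 CPM (0.17), and E2f1 at 53 and 56.4 against 52.9 and 55.9 CPM (0.04). Of these 7, Mcm2, Cdt1 and Pcna were apart between genotypes and the other 4 overlapped. None passed the test (adjusted p from 0.431 to 0.94, edgeR).

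The flat sum in DPbla was made of clusters that differed in size and level. Cluster 13, with the highest levels of licensing genes, held 19.9% and 23.9% of the DPbla cells in the controls and 29% and 35.1% in the cKO. Cluster 11, where replication genes were lowest, held 43.1% and 37.7% in the controls and 32.2% and 29.2% in the cKO. Cluster 10 held 35.8 to 38.7% in all 4 libraries. These shares rest on a clustering without the 58 genes but with other S-phase and mitosis genes, and were not tested.

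Within cluster 13, the replication genes made up 1.32% and 1.2% of UMIs in the controls and 1.15% and 1.07% in the cKO (log2 ratio −0.19). Within cluster 10 they made up 1.4% and 1.36% against 1.26% and 1.18% (−0.18). In both clusters the cKO libraries lay below both controls. Cluster 11 held 0.446% and 0.527% in the controls and 0.518% and 0.519% in the cKO, which overlap (0.09). With the 3 clusters given equal weight in each library, DPbla came to 1.06% and 1.03% in the controls and 0.974% and 0.924% in the cKO (−0.14). The ratio of the pooled blasts was −0.02, smaller in size than that of each cluster, and the direction in cluster 11 was opposite to that in clusters 13 and 10, a difference that was not tested.

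No gene was called in any of the 3 clusters alone with edgeR (background 1.81% in cluster 13, 0.48% in cluster 10 and 0.208% in cluster 11). Both cKO libraries were below both controls for 27 of the 58 genes in cluster 13 (46.6%, against 27.1% of all genes tested there) and for 32 in cluster 10 (55.2%, against 22.9%). In cluster 11 that held for 4 of the 56 genes tested (7.14%, against 20.3%), and 16 were above both controls (28.6%, against 17.8%). At an unadjusted p under 0.05, 10 were lower (17.2%, against 5.69%) and 0 higher (against 6.85%) in cluster 13. In cluster 10, 11 were lower (19%, against 4.34%) and 0 higher (against 5.08%), and in cluster 11, 1 was lower (1.79%, against 3.64%) and 10 were higher (17.9%, against 5.54%). Median log2 fold changes were −0.09, −0.13 and 0.15, with a median of 0 over all genes in each.

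By role, the sums in cluster 10 were lower in both cKO libraries for licensing (2680 and 2595 against 2412 and 2265 CPM), clamp (4560 and 4372 against 4162 and 3765 CPM), RPA (628 and 606 against 536 and 489 CPM) and chromatin genes (2465 and 2447 against 2155 and 2047 CPM). In cluster 13 the same held for licensing (3404 and 3156 against 3057 and 2829 CPM), RPA (673 and 570 against 527 and 475 CPM) and chromatin genes (2421 and 2170 against 1931 and 1903 CPM), while clamp genes overlapped (3224 and 2787 against 2799 and 2470 CPM). Fork control genes overlapped in cluster 10, at 891 and 1031 CPM in the controls and 830 and 912 CPM in the cKO.

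**Figure D3:**
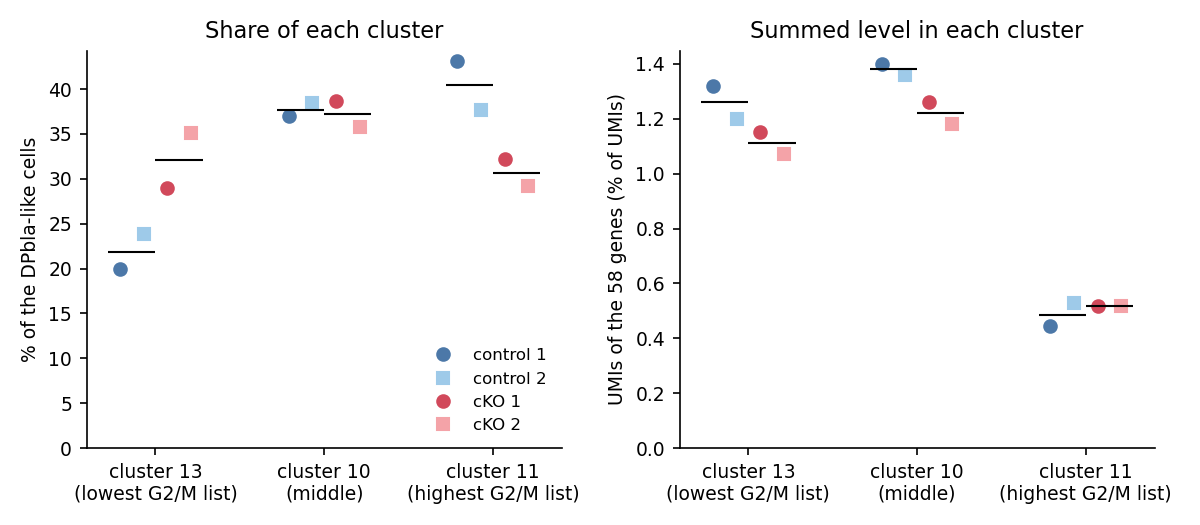
DP blasts by cluster: share of DPbla cells (percent) and summed level of the 58 genes (percent of UMIs) in each library (points; black bars are means of a genotype). In clusters 13 and 10 the cKO libraries lie below the controls in level, while the share of cluster 13 is larger in cKO.

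Beside these values, the G2/M list held 2.84% and 2.67% of DPbla UMIs in the controls and 2.32% and 2.2% in the cKO. Its median log2 fold change in DPbla was −0.25 with 3 of 54 genes above 0, and Pimreg was called lower (87.1 and 77 against 60 and 51.6 CPM; −0.51, SE 0.12, adjusted p = 0.0309, edgeR). Within the clusters the G2/M list had other values: its median was 0.26 in cluster 13 with 41 of 51 above 0 and Kif11 called higher, 0.08 in cluster 10 with 41 of 54 above 0 and Psrc1 called higher, and −0.1 in cluster 11 with 15 of 54 above 0 and 0 called (edgeR). Replication genes of the pooled blasts, with a median of 0.05, did not share that direction. The part of the changed cluster shares in it was not tested beyond the comparisons within clusters. Median totals of DPbla cells were 10529, 9815, 10473 and 8344 UMIs in control 1, control 2, cKO 1 and cKO 2.

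In resting DP cells, 4 of the 58 genes were called, all higher in cKO (6.9%, against 2.14% of all 11709 genes called in either direction and 1.32% called higher). At an unadjusted p under 0.05, 19 were higher (32.8%, against 8.48%) and 1 was lower (1.72%, against 6.85%). Both cKO libraries were above both controls for 31 genes (53.4%, against 18.3%) and below for 6 (10.3%, against 28.7%). The log2 fold change was above 0 for 50 genes (86.2%, against 50.3%), with a median of 0.24. The sum was 0.142% ± 0.0082 in the controls and 0.155% ± 0.0032 in the cKO (mean ± SD, n = 2 each), a fold of 1.09. Without control 1, 8 genes were called (Rad51ap1, Lig1, Pclaf, Cdc6, Rfc4, Uhrf1, Hells and Pola1; 13.8%, against 2.79% of all genes). There were 4 without control 2 (6.9%, against 2.42%), 3 higher and Rpa3 lower, 3 without cKO 1 (5.17%, against 3.2%), 2 higher and Rpa3 lower, and 5 without cKO 2 (8.62%, against 2.59%), all higher. DESeq2 called 1, Pclaf (1.72%, against 1.58%), a share near the background.

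Pclaf was counted at 45 and 31 CPM (401 and 396 UMIs) in the control DPre cells and at 76.6 and 58.1 CPM (712 and 804 UMIs) in the cKO, with no overlap (log2 fold change 0.88, SE 0.16, adjusted p = 0.0112, edgeR). Pola1, the catalytic subunit of polymerase alpha, was at 2.92 and 3.36 CPM (26 and 43 UMIs) against 7.42 and 7.09 CPM (69 and 98 UMIs), again apart (1.23, SE 0.26, adjusted p = 0.0198, edgeR). Cdc6, the loader of the MCM ring, was at 2.58 and 2.03 CPM (23 and 26 UMIs) against 6.24 and 5.13 CPM (58 and 71 UMIs). It was called as well (1.35, SE 0.29, adjusted p = 0.0246, edgeR). Clspn was at 9.19 and 10.4 CPM (82 and 133 UMIs) against 15.6 and 15.9 CPM (145 and 220 UMIs), with the cKO libraries close together (0.72, SE 0.17, adjusted p = 0.0393, edgeR).

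All 4 were higher in cKO under each of 14 alternative settings. Pclaf was called in all 14 (adjusted p 7.95e-13 to 0.0355, edgeR or DESeq2), Pola1 in 12 (6.94e-05 to 0.814), Clspn in 9 (0.000656 to 0.154) and Cdc6 in 7 (0.000144 to 0.172). In DPbla, where these genes are many times more abundant, their log2 fold changes were −0.04 for Pclaf, 0.19 for Pola1, 0.05 for Cdc6 and 0.08 for Clspn.

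The fixed examples other than Pola1 had smaller differences in DPre. Dnmt1 was at 45.7 and 41.9 CPM in the controls and at 54.6 and 59.1 CPM in the cKO, apart but not called (0.42, SE 0.11, adjusted p = 0.0708, edgeR). Pcna was at 99.8 and 82.5 against 102 and 105 CPM (0.22), Cdt1 at 15.8 and 13.7 against 16.9 and 16.3 CPM (0.21), and E2f1 at 3.36 and 3.44 against 6.02 and 4.34 CPM (0.62), all apart in the same direction. Mcm2 and Cdc45 overlapped, at 45.4 and 41.6 against 46.4 and 45.1 CPM (0.12) and at 5.38 and 3.6 against 6.35 and 4.34 CPM (0.29). None of these passed the test (adjusted p from 0.307 to 0.698 for the 5 other than Dnmt1, edgeR).

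By role, all 12 licensing genes had a log2 fold change above 0 in DPre and 9 had both cKO libraries above both controls (against 50.3% and 18.3% of all genes), with a median of 0.24. The medians were 0.67 for maturation and repair (5 of 6 above 0), 0.42 for chromatin assembly (6 of 7), 0.41 for fork control (4 of 4), 0.31 for polymerases (8 of 9), 0.13 for the clamp genes (5 of 7) and 0.11 for firing (8 of 10). The RPA genes stood apart with a median of 0, and their sum was 204 and 179 CPM in the controls and 171 and 157 CPM in the cKO. The difference lay in the small subunit gene Rpa3, the 1 member lower at an unadjusted p under 0.05. It was at 122 and 98.9 CPM in the controls and at 87 and 76.9 CPM in the cKO (−0.39, SE 0.12, adjusted p = 0.111, edgeR), and was called lower without control 2 and without cKO 1.

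**Figure D4:**
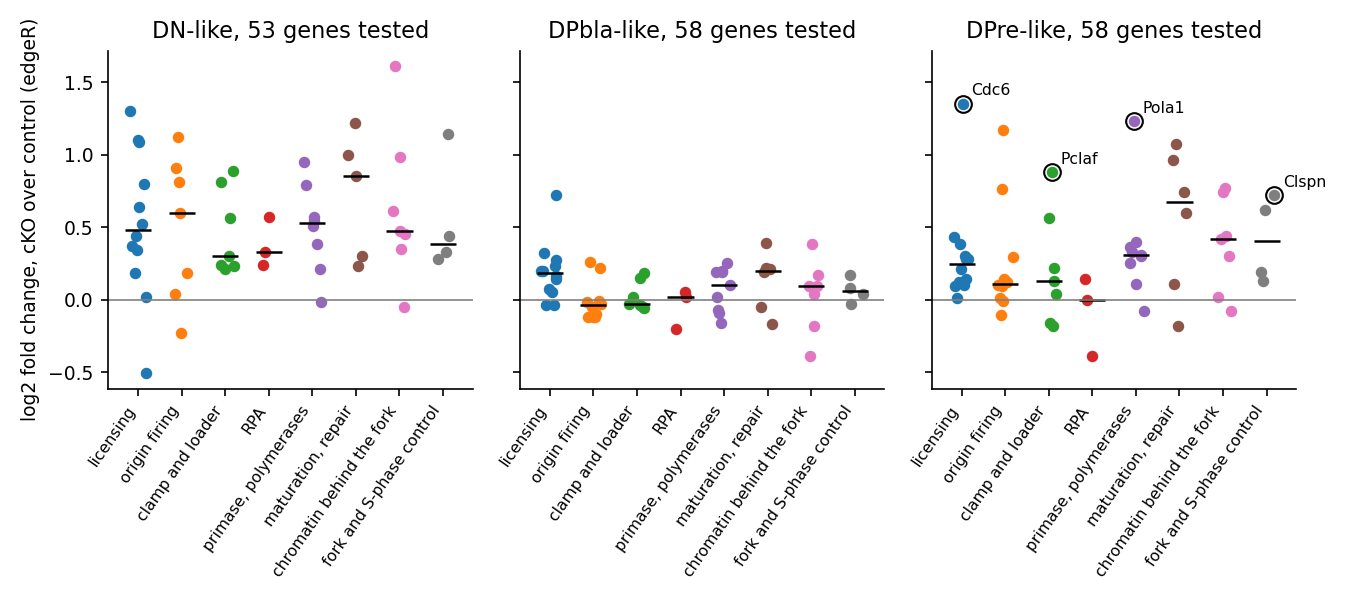
Log2 fold change (cKO over control, edgeR) of each replication gene in DN, DPbla and DPre cells, grouped by role (points; black bars are medians of a role, circled points passed an adjusted p of 0.05). The circled genes are Pclaf, Pola1, Cdc6 and Clspn, all in DPre.

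The called genes were also counted in MPS cells, which held Cd8b1 at 1110, 1393, 580 and 1090 CPM and Rag1 at 729, 848, 465 and 818 CPM in control 1, control 2, cKO 1 and cKO 2. In these cells, Pclaf was at 111 and 99.7 CPM in the controls and at 242 and 149 CPM in the cKO, higher than in DPre and with the same direction. Pola1 in MPS rested on 4, 2, 8 and 9 UMIs in control 1, control 2, cKO 1 and cKO 2 (9.47, 3.5, 12.3 and 9.31 CPM), and its groups overlapped. Cdc6 had 0 UMIs in both control MPS sums, which allows up to 7.1 and 5.25 CPM, and 6 and 10 UMIs (9.24 and 10.3 CPM) in the cKO. Clspn was at 21.3, 5.25, 24.6 and 19.6 CPM there and overlapped. The MPS levels of these genes were as high as or higher than in DPre in most libraries, and the part of RNA from other cells in the counts of either class was not tested.

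Mitosis genes were higher in the same cells. In DPre, Top2a was at 53.6 and 42.9 CPM in the controls and at 83.3 and 82.5 CPM in the cKO (0.83, SE 0.12, adjusted p = 0.00197, edgeR), and Mki67, Nusap1, Cenpf and Smc4 were called higher too. The G2/M list had a median of 0.45 with 48 of 54 above 0, and its share of DPre UMIs was 0.352%, 0.321%, 0.383% and 0.381% in control 1, control 2, cKO 1 and cKO 2. In MPS cells Top2a was at 82.8 and 69.9 CPM in the controls and 202 and 190 CPM in the cKO. The 10% of DPre cells with the highest share of the G2/M list, taken over all libraries pooled, were then left out. This kept 2627 of 2819 cells in control 1 and 4381 of 4602 in control 2. It kept 2709 of 3163 in cKO 1 and 5128 of 5909 in cKO 2, so the cut took a larger share of the cKO cells. In the cells that remained, 3 replication genes were called (Clspn, Pclaf and Pola1; 5.17%, against 1.8% of all genes) and the median over the 58 was 0.20. Markers of MPS cells summed to 325 and 319 CPM in the controls and 358 and 353 CPM in the cKO DPre cells, and those of B cells to 473 and 428 against 552 and 486 CPM. The 6 erythroid markers summed to 21.2 and 16.7 CPM in the controls and 28.1 and 41.9 CPM in the cKO DPre cells. These 3 lists were higher in both cKO libraries than in both controls. The genotypes overlapped for markers of thymic epithelial cells (52.8 and 38.5 against 38.4 and 39.9 CPM) and of neutrophils (19.4 and 6.42 against 28.9 and 6.43 CPM). They also overlapped for markers of γδ T cells (53.5 and 40.1 against 59.5 and 46.8 CPM). The part of such cells in the result was not tested.

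**Figure D5:**
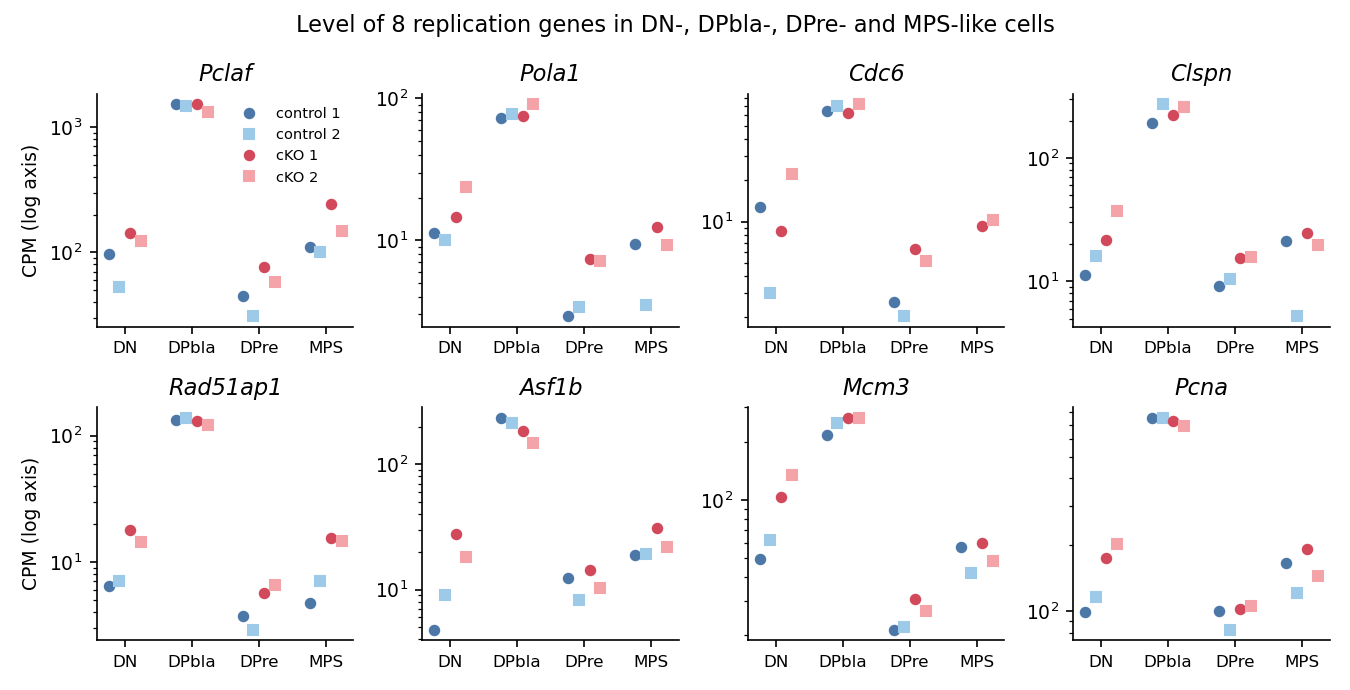
Level of 8 replication genes (CPM, log axis) in DN, DPbla, DPre and MPS cells of each library (points). In DPre the cKO points of Pclaf, Pola1, Cdc6 and Clspn lie above the control points, and the control values of Cdc6 in MPS cells are 0 and cannot be drawn on a log axis.

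In DPsel cells, 1 of 58 genes was called (1.72%, against 0.156% of all genes): Pclaf, at 30.4 and 20.1 CPM in the controls and at 48.8 and 47.4 CPM in the cKO (0.96, SE 0.17, adjusted p = 0.038, edgeR). This call was lost without control 2, with the members kept among the clustering genes, at cluster resolution 1.5 and at a mitochondrial limit of 5%, and without cKO 2 Hells was called as well (2 of 58, 3.45%, against 0.538%). At an unadjusted p under 0.05, 12 were higher (20.7%, against 4.76%) and 0 were lower (against 4.06%). The median over the 58 was 0.17, with 50 above 0 (86.2%, against 50.3%). The G2/M list had a median of 0.29 in DPsel with 44 of 52 above 0, and Nusap1 and Top2a were called higher (edgeR). Erythroid markers (21.2 and 14.6 against 24.2 and 34.2 CPM) and γδ T cell markers (30.8 and 23.1 against 43 and 39.8 CPM) were higher in both cKO libraries. B cell markers were lower in both (262 and 234 against 216 and 232 CPM), and the other lists overlapped. The part of such cells was not tested. In CD4SP, 0 of the 50 tested were called with edgeR (background 0.278%), 5 were higher (10%, against 4.13%) and 0 lower (against 3.77%) at an unadjusted p under 0.05, and the median was 0.13 with 33 above 0 (66%, against 49.6%). In CD8SP, 0 of the 51 tested were called (background 0.123%), 2 were higher (3.92%, against 3.68%) and 0 lower (against 3.32%) at an unadjusted p under 0.05, and the median was −0.02 with 25 above 0 (49%, against 50.2%). DESeq2 called 0 in both. In CD4SP edgeR called Pclaf without control 1 (1.89%, against 0.898%) or cKO 2 (1.96%, against 0.267%), and Mcm3 and Dtl without control 2 (3.85%, against 0.674%). The shift toward higher levels seen in DPre and DPsel had no counterpart in the CD8SP medians, but the difference between these classes was not tested.

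The effect of the genotype differed between stages for several members when the difference itself was tested (edgeR interaction term over 12 sums, library as block, 12125 genes). Between DPbla and DPre, 6 of the 58 were called (background 0.998%), and all had a lower log2 fold change in DPbla. Pclaf differed by −0.91 (SE 0.13, adjusted p = 0.000118, edgeR), Rad51ap1 by −1.04 (SE 0.22, adjusted p = 0.00723), Pola1 by −1.01 (SE 0.22, adjusted p = 0.00966), Cdc6 by −1.27 (SE 0.29, adjusted p = 0.0157), Asf1b by −0.69 (SE 0.16, adjusted p = 0.0183) and Clspn by −0.63 (SE 0.16, adjusted p = 0.0316). Rad51ap1 was at 3.7 and 2.9 CPM in the control and at 5.7 and 6.58 CPM in the cKO DPre cells, against 133, 139, 131 and 122 CPM in DPbla. The count was 1 without control 2 (1.72%, against 0.198% of all genes), 2 without cKO 1 (3.45%, against 0.579%), 3 without cKO 2 (5.17%, against 0.531%) and 14 without control 1 (24.1%, against 1.34%), so it rested on these libraries.

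Between DN and DPbla, 4 were called (background 0.998%), all with a higher log2 fold change in DN. Asf1b differed by 2.05 (SE 0.40, adjusted p = 0.00364, edgeR), Pclaf by 1 (SE 0.20, adjusted p = 0.00489), Mcm3 by 0.94 (SE 0.19, adjusted p = 0.00489) and Pcna by 0.89 (SE 0.16, adjusted p = 0.00145). Asf1b had log2 fold changes of 1.61 in DN and −0.39 in DPbla. The count was 2 without control 2 (3.45%, against 0.506% of all genes) or cKO 2 (3.45%, against 0.589%) and 9 without cKO 1 (15.5%, against 0.703%). Between DN and DPre, 0 of the 58 were called with edgeR (background 0.247%; 2 without cKO 1, 3.45% against 0.141%), and 14 had an unadjusted p under 0.05 (24.1%, against 8.52%).

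A further list of 50 genes of the same pathways was read for comparison. In DPre all 50 were tested and 1 was called (2%, against 2.14% of all genes, a share near the background), the activator E2f2, at 116 and 125 CPM in the controls and at 149 and 165 CPM in the cKO (0.42, SE 0.10, adjusted p = 0.0433, edgeR). The list had a median of 0.1 with 30 above 0, against 0.24 and 50 of 58 for the replication genes. In DN, 40 of the 50 were tested, 0 were called and the median was 0.13, against 0.47. In DPbla, 0 were called and the median was 0.

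Cells were also counted as replication gene positive after thinning each to 1000 UMIs, with a limit of 5 UMIs over the 58 genes. In DPbla, 71% and 77.3% of control cells and 79.3% and 79.4% of cKO cells reached it. In DN it was 14.7% and 15.7% (exact 95% intervals 7.28 to 25.4% and 9.24 to 24.2%) against 18.8% and 21% (12.7 to 26.4% and 16.3 to 26.4%), intervals that overlap. In DPre it was 2.56% and 1.43% against 2.85% and 2.48%. MPS cells reached 5.65%, 6.75%, 11.5% and 7.55%, above the shares in DPre, with 69 to 272 MPS cells per library left out as under 1000 UMIs, and no difference between genotypes was read from the DPre shares. Without thinning, 92.4 to 97.1% of DN cells passed, since these cells had median totals of 7463 to 9957 UMIs.

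Within DPre, the mean number of replication gene UMIs per 1000 was 1.51 and 1.38 in the controls and 1.57 and 1.53 in the cKO.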

How the data were processed

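Thymocytes of 2 control and 2 cKO mice were profiled, with 1 matrix per library. The authors aligned reads to mm10 with Cell Ranger (version 6.1.1 in the matrix headers) and deposited the filtered matrices of raw UMI counts per gene and cell, with no normalization. The counts were read as deposited. Cells with under 200 genes, over 10% mitochondrial UMIs or in the outer 2.5% of UMI totals at either end of their library were left out, following the study, and the 5% of cells with the highest Scrublet score per library (expected rate 8%) were removed as doublets (297 to 633 cells).

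The 58 genes and the comparison lists were chosen with earlier results of these data known. The 58 were excluded from the 3000 variable genes (12 of them would have been included), which gave 30 principal components, 20 neighbours and Leiden clusters at resolution 1 (scanpy 1.11.5, leidenalg 0.10.2). A cluster took the name of the marker list with the highest score over the other clusters, where that score was at least 1 and at least 3 markers were detected. Clusters under 20 cells, of low UMI totals, with markers of different kinds of cell or with leading genes of another class stayed unnamed, and the last of these rules and its limits were set after the clusters had been seen.

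Counts were summed per library and class (at least 30 cells in each library) and tested with edgeR 4.0.16 in R 4.3.3 (TMM, filterByExpr, quasi-likelihood F test, genotype as the term), with p adjusted by the Benjamini-Hochberg method over all genes of the class and called under 0.05. The study tested cells within each pair of mice, while the library is the unit here. SE was taken as the log2 fold change over the square root of the F value. Differences between stages were tested with library as block. DESeq2 1.42.0 was an alternative. CPM is UMIs per 1000000 UMIs of the class, and profiles between classes used a pseudocount of 5 CPM. The fits were tested on simulated data.

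Genes named are those called (or, with fewer than 4, the 4 of smallest p), the fixed members Mcm2, Cdt1, Cdc45, Pcna, Pola1, Dnmt1 and E2f1, the 5 steepest and 5 flattest profiles and each called difference between stages. Intervals cover counting error only. p-values measure the spread between 2 libraries a group. Alternatives were another scaling, no filter on low counts, DESeq2, the replicate number as block, each library left out, other clusterings and cell filters, and parts of the classes. Promoters came from RefSeq windows, and protein sequences were not used here.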

Additional observations from a re-analysis of the deposited data

Results flagged for a closer look

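For 8 replication genes the genotype effect differed between stages by the interaction test itself (edgeR, Benjamini-Hochberg adjustment, library as block, 2 libraries per genotype). Between DPbla and DPre, the difference in log2 fold change was −0.91 for Pclaf (adjusted p = 0.000118, edgeR), −1.04 for Rad51ap1 (adjusted p = 0.00723), −1.01 for Pola1 (adjusted p = 0.00966), −1.27 for Cdc6 (adjusted p = 0.0157), −0.69 for Asf1b (adjusted p = 0.0183) and −0.63 for Clspn (adjusted p = 0.0316). Between DN and DPbla it was 2.05 for Asf1b (adjusted p = 0.00364, edgeR), 1 for Pclaf (adjusted p = 0.00489), 0.94 for Mcm3 (adjusted p = 0.00489) and 0.89 for Pcna (adjusted p = 0.00145). Pclaf and Asf1b are in both lists, and in each the fold change in DPbla was the lower of the pair. DPbla libraries are shared by both contrasts. The lists held 6 and 4 of the 58 genes (10.3% and 6.9%, against 0.998% of all genes in each contrast). The first was 1 gene without control 2 (1.72%, against 0.198%) and 14 without control 1 (24.1%, against 1.34%), and the second ran from 2 genes without control 2 (3.45%, against 0.506%) or cKO 2 (3.45%, against 0.589%) to 9 without cKO 1 (15.5%, against 0.703%).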

How the results depend on the processing

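Calls of single genes depended on the setting, and directions in DN and DPre mostly did not. The summed level kept its direction in DN and DPre under every setting run: without cKO 2 the DN ratio was 0.31 (main 0.43, 0.31 to 0.54 with a library left out), and with a mitochondrial limit of 5% the DPre ratio was 0.19 (main 0.12). In DPbla (main −0.02) it was −0.22 in cells with the lower shares of the G2/M list, 0.03 with the late mitosis cluster, −0.19, −0.18 and 0.09 in clusters 13, 10 and 11 and −0.14 with equal cluster shares. The 5 last settings were chosen after seeing the data. Without a filter on low counts, 6 members were called in DN, 3 in DPbla, 12 in DPre and 3 in DPsel (main 0, 0, 4 and 1), which is 10.3%, 5.17%, 20.7% and 5.17% against 0.445%, 3.28%, 3.5% and 0.921% of all genes. All were higher in cKO but Asf1b in DPbla and Rpa3 in DPre, and 2 differed between DN and DPre (3.45%, against 0.297%), 7 between DN and DPbla (12.1%, against 1.03%) and 8 between DPbla and DPre (13.8%, against 0.845%). DESeq2 called 1 in DPre (1.72%, against 1.58%). A mitochondrial limit of 5% gave 1 in DPbla (1.72%, against 1.57%), 1 in DPre (1.96%, against 1.37%), both near the background, and 0 in DPsel, and could not be fitted in DN (4 cells in control 1) or CD8SP (19 cells in control 2). DPsel had 0 calls with the members kept among the clustering genes and at resolution 1.5. The cells with the lower G2/M shares gave 2 in DPbla, Slbp and Prim1, both lower (3.45%, against 2.17%). With a library left out, calls numbered 2 to 5 in DN and 3 to 8 in DPre, and 0 to 2 each in DPbla, DPsel and CD4SP, and differences between stages 1 to 14 (DPbla and DPre), 0 to 2 (DN and DPre) and 2 to 9 (DN and DPbla). The cause of these shifts was not tested.

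With the replicate number as a block, edgeR called 15 members in DPre (25.9%, against 9.34% of all genes), 9 in DN (17%, against 1.26%), 5 in DPbla (8.62%, below the 10.1% of all genes), 3 in DPsel (5.17%, against 2.3%), 2 in CD4SP (4%, against 1.53%) and 0 in CD8SP, all higher in cKO but Rpa3 in DPre and Asf1b in DPbla. Libraries of the same number deviated together (correlations of 0.1 to 0.23 over the classes, 2 pairs), as did their mitochondrial shares. The study speaks of pairs of mice, but the labels tie no number to a litter or day, so the numbers were not taken as pairs.

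The share of cells with 5 or more member UMIs (cKO minus control, in percentage points after thinning, 4.7 in DN, 5.2 in DPbla and 0.67 in DPre) was 0.25, 0.45 and −3.85 unthinned. It was 2 in DPbla and 1.7 in DPre for 1 or more UMIs, and 0.585 in DN and 0.0409 in DPre for 10 or more. Named genes changed direction in DPbla. In the cells with the lower G2/M shares Mcm2 was at −0.17, Cdt1 at −0.13, Dnmt1 at −0.02 and E2f1 at −0.27, and in those with the higher shares Pcna was at 0.03 and E2f1 at −0.25. In cluster 13 Ung was at −0.19, Mcm2 at −0.25, Cdt1 at −0.12 and E2f1 at −0.13. In cluster 10 Ung was at −0.42, Orc1 at −0.24, Mcm2 at −0.08, Cdt1 at −0.13 and E2f1 at −0.54, and in cluster 11 Pcna was at 0.15. Pcna was at 0.03 with a mitochondrial limit of 5%, and E2f1 at −0.09 without removal of extreme UMI totals. With a library left out, Cdc45 ran from −0.26 to 0.02, Pcna from −0.07 to 0.01 and E2f1 from −0.03 to 0.13 in DPbla, and E2f1 from −0.25 to 0.93 in DN.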
